A study of Mus musculus with 6 samples.

Results

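The comparison described here set the melan-a array labelled with activated BRAF and SNAIL2 against the array labelled with activated BRAF alone, 2 of the 6 arrays of the series, each the only array of its group. Melan-a is an immortal line of pigment cells grown from the epidermal melanoblasts of C57BL/6 mouse embryos. All cultures came from cells carrying delta-BRAF-ER, an activated BRAF kinase joined to a hormone receptor part so that tamoxifen turns it on, and both arrays of the comparison were from the activated state. The array with BRAF not activated (BRAF-off below) served as a check on each difference from the array with BRAF activated (BRAF-on below), and the arrays labelled ZEB2, TWIST1 and ZEB1 gave further levels. Neither tamoxifen without the construct nor SNAIL2 without BRAF activation is among the labelled arrays, and the labels do not say whether a group was a clone or a pool of cells, nor how long BRAF was active. Of 18193 genes with a probe set, 11416 entered the comparison, those with a signal of at least 63.7 units on at least 1 of the 2 arrays. This value, the floor, is the median of all non-control values, and lower signals were raised to it, so that a ratio with an array under it is a lower bound. With 1 array a side there is no spread between replicates and hence no test. Every ratio below describes these arrays, and a gene was counted as higher or lower where its signals were at least 2-fold apart. A difference between cultures cannot be told apart from an effect of SNAIL2.

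SNAIL2, also called Slug, is a zinc finger transcription factor of the neural crest, the embryonic tissue from which melanocytes arise. It is known as a repressor that binds E-box sequences, and it is best known for shutting off E-cadherin when epithelial cells turn mesenchymal. Pigment cells make melanin in melanosomes, organelles related to lysosomes, and the transcription factor MITF drives most of the genes this takes. BRAF feeds the MEK and ERK kinases, whose activity is known to reach MITF, the AP-1 factors and secreted proteases.

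The array labelled SNAIL2 did not show more Snai2 signal. The brighter of its probe sets was at 3944 in BRAF-off, at 4175 in BRAF-on and at 3142 on the array labelled SNAIL2, and the dimmer at 1393, 1157 and 407. Both were lower there than on any of the other 5 arrays. Probe sets of this array type lie near the 3' end of the cell's own transcript, so they may not read an introduced coding sequence, and where that sequence lies is not given in the sources used. The values therefore neither bear out nor refute the label, and "the array labelled SNAIL2" is used throughout. The melanocyte identity of the cells was clear on it. The 10 defining markers Tyr, Tyrp1, Dct, Pmel, Mlana, Mitf, Sox10, Pax3, Kit and Mc1r all lay above the floor, between 2761 (Kit) and 33845 (Dct) signal units.

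Promoters of pigment genes were read for 3 short motifs, because the largest coherent group of higher genes was that of pigment cells. The stretch of 250 bases before the start of transcription was taken from RefSeq, build GRCm38.p6, which held such a window for 9284 of the 11416 genes. Motifs searched on both strands were CAGGTG, an E-box known to be bound by SNAIL factors, CACGTG, an E-box known to be bound by MITF and its relatives, and TCATGTG, the M-box of pigment genes. None of the 3 is contained in another. The first 4 windows below are shown since they hold the M-box in pigment genes counted as higher, and that of Rab27a since it holds CAGGTG. Each is written 5' to 3' on the gene's own strand, and the capitals mark the motif.
Tyr (chr7:87493513-87493762, minus strand): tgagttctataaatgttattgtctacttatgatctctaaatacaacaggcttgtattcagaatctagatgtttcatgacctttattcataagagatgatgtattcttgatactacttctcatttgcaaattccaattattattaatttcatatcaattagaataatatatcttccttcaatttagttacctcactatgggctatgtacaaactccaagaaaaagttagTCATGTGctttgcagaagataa
Tspan10 (chr11:120442381-120442630, plus strand): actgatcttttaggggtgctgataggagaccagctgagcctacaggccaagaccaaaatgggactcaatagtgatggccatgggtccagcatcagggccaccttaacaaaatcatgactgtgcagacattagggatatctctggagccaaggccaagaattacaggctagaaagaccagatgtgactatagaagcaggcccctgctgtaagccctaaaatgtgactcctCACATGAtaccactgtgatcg
Kcnj13 (chr1:87394730-87394979, minus strand): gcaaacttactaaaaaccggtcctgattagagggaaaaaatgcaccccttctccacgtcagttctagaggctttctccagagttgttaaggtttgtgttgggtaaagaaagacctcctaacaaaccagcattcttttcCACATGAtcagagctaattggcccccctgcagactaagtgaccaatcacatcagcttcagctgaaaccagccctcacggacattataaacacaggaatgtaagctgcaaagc
Trpm1 (chr7:64153585-64153834, plus strand): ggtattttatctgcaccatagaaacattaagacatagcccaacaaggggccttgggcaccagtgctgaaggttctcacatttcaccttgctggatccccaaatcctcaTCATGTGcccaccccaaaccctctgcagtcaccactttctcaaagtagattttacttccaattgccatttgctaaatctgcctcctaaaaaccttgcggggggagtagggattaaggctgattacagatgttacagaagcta
Rab27a (chr9:73044560-73044809, plus strand): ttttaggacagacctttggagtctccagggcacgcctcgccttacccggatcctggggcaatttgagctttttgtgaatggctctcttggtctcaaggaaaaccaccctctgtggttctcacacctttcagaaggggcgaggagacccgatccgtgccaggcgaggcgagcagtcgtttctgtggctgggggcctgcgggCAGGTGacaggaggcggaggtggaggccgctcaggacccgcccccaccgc
The first base of the motif lies at -22 in Tyr, -21 in Tspan10, -112 in Kcnj13 and -142 in Trpm1, counted from the start of transcription. In Tspan10 and Kcnj13 it reads on the opposite strand and so appears as CACATGA. The CAGGTG of Rab27a lies at -50. Trpm1 and Rab27a each have a second start, and the window before it holds CACGTG in both genes.

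The M-box was found in 24 of 521 genes counted as higher on the array labelled SNAIL2 (4.61%), in 12 of 596 lower genes (2.01%) and in 2.24% of all genes compared that had a window. In the 3 melanosome lists (enzymes and matrix, channels, biogenesis and transport), 24 genes were counted as higher, and 4 of the 16 with a window held the M-box, the first 4 windows above. Of the members of these lists within 2-fold, 3 of 22 did. For CACGTG the same counts were 5 of 16 and 6 of 22, and for CAGGTG 3 of 16 and 4 of 22, so that their shares differed little between the groups. Over all genes, CACGTG was present in 72 higher genes (13.8%), in 51 lower genes (8.56%) and in 9.95% of all. The CAGGTG motif of SNAIL factors was present in 107 higher genes (20.5%), in 106 lower genes (17.8%) and in 18.0% of all, so its share among lower genes was near the background. Over the windows of all 27025 genes in the table the shares were 19.4% for CAGGTG, 3.72% for the M-box and 6.86% for CACGTG. The median GC content of the windows was 60.4% in higher genes and 56.8% in lower genes. A match in so short a window is a description of the sequence only.

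In all, 641 of the 11416 genes (5.61%) were higher on the array labelled SNAIL2 than in BRAF-on, by at least 2-fold, and 733 (6.42%) were lower by as much. These 2 shares are the background for every count of list members below. The sizes were mostly moderate. The median fold was 2.42 on the higher side and 2.43 on the lower side, the largest were 10.9 and 12.1, and 155 genes (1.36%) were at least 3-fold higher and 176 (1.54%) at least 3-fold lower. The median signal of higher genes was 342 in BRAF-on and 956 on the array labelled SNAIL2, and that of lower genes 1058 and 413. BRAF-on enters the choice of both groups, so its lower median in higher genes follows in part from that choice. Of the 4 arrays with an added factor, that labelled SNAIL2 had the most genes apart from BRAF-on. The array labelled ZEB1 had 522 higher (4.49%) and 456 lower (3.93%), TWIST1 230 (2.03%) and 229 (2.02%), and ZEB2 199 (1.76%) and 66 (0.583%). The median log2 ratio over all genes compared was 0.06, with an SD over genes of 0.667.

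Each difference was then read against BRAF-off, which is no replicate of BRAF-on but another array of the same line without SNAIL2. Against BRAF-off, 446 of 11149 genes (4%) were counted as higher and 592 (5.31%) as lower. Of the 641 higher genes, 636 lay above BRAF-off as well, 322 of them (50.2%) by at least 2-fold. The 5 that lay below it were Nrxn3, Dus2, Bcan, Npnt and Gpm6a. Of the 733 lower genes, 684 lay below BRAF-off, 495 (67.5%) by at least 2-fold, and 33 lay above it. The 8 that were at least 2-fold above BRAF-off are Mmp10, Serpinb2, Mmp13, Mmp1a, Usp17la, BC080696, Evi2a and Zfp352. For genes so chosen BRAF-on is necessarily the highest of these 3 arrays. On the array labelled SNAIL2, 601 of the higher genes had their highest signal of all 6 arrays, and 644 of the lower genes their lowest. Of all 11416 genes compared, 3911 had their highest signal there and 2921 their lowest.

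**Figure D1:**
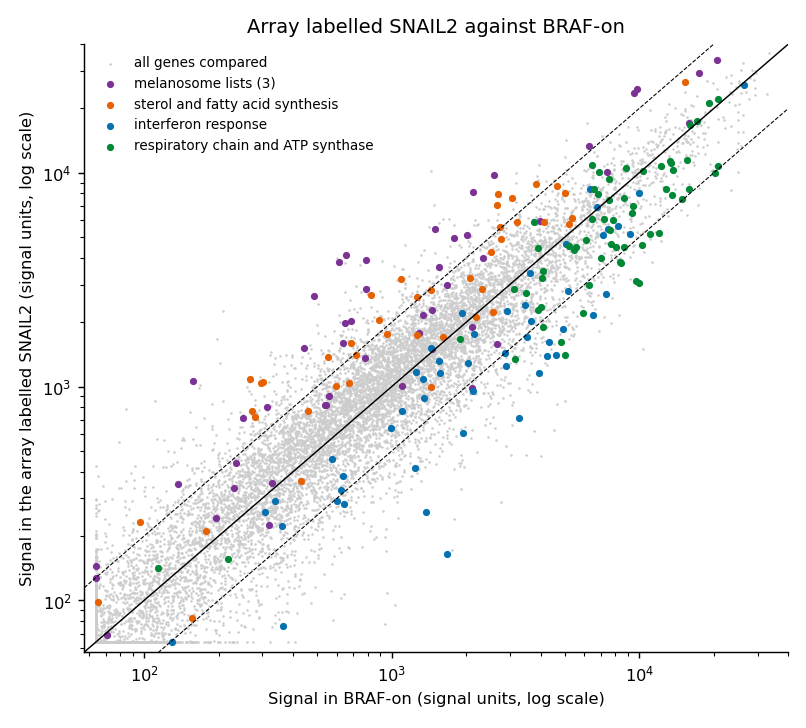
Signal of each gene in BRAF-on (horizontal, log scale) and in the array labelled SNAIL2 (vertical, log scale), in signal units, with values under the floor drawn at it; the solid line marks equal signals and the broken lines a 2-fold difference. Of the 11416 genes (grey) 641 lie on or above the upper broken line and 733 on or below the lower; genes of the melanosome lists and of sterol and fatty acid synthesis lie mostly above the solid line, interferon response and respiratory chain genes mostly below it.

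Where a gene had several probe sets, they often gave different sizes. Of the 316 higher genes with at least 2 measured probe sets, 107 (33.9%) were at least 2-fold higher on all of them and 33 (10.4%) had a probe set of the opposite sign. For the 334 lower genes these numbers were 109 (32.6%) and 57 (17.1%). The distance between the highest and lowest log2 ratio of a gene had a median of 0.65 in higher genes, 0.80 in lower genes and 0.42 over all 5509 genes with several measured probe sets. It was at least 1 in 131 of the lower genes (39.2%), against 723 (13.1%) of all. Ranges over probe sets are given below for some genes only, and other named genes can also have a probe set under 2-fold.

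Several technical values moved with this array. The control transcripts with a poly-A tail that are added to the RNA before amplification were at a median of 2.55 times their BRAF-on signal over 24 probe sets, with a range of 1.73 to 3.34, while the same median lay between 0.880 and 1.42 on the other 4 arrays. The hybridisation controls, added after amplification, were at 1.20 times. The ratio of 3' to 5' signal of Gapdh was 0.839 on the array labelled SNAIL2 and 0.811 in BRAF-on, and that of Actb 1.44 and 1.47, both inside or at the edge of the range of the other arrays. That of Pcx was 9.68 on the array labelled SNAIL2 and 3.20 in BRAF-on, with 2.89 to 10.2 on the other arrays, and its 5' probe set was dim, at 92.9 and 79.0 signal units. The part of these controls in the differences was not tested. In bulk RNA, fewer cells of a kind and less RNA per cell cannot be told apart.

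Many of the genes that make and fill the melanosome had their highest signal on the array labelled SNAIL2, 7 of 9 in the enzyme and matrix list, 11 of 12 in the channel list and 20 of 28 in the biogenesis and transport list. Of all 11416 genes compared, 3911 had their highest signal there. Over 5 lists of pigment cell genes with 83 members compared, 37 (44.6%) were at least 2-fold higher than BRAF-on and 2 lower, against 5.61% and 6.42% of all genes. The median log2 ratio was 0.75, and 67 members lay above 0. Of the 37, 36 had their highest signal of the 6 arrays there, Rab17 being the exception with a higher value on the array labelled ZEB2. Of all 641 higher genes, 601 had their highest signal on the array labelled SNAIL2, 636 lay above BRAF-off and 322 by at least 2-fold. All 37 pigment cell genes lay above BRAF-off, 22 by at least 2-fold. For 35 of the 37 BRAF-on was below BRAF-off, which is favoured by their choice as genes at least 2-fold above BRAF-on. Of the 19 with several measured probe sets, 15 were at least 2-fold higher on all and none had a probe set of the opposite sign.

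Among the enzymes of melanin synthesis, Tyr, the rate-limiting tyrosinase, was at 5366 in BRAF-off, 2583 in BRAF-on and 9714 on the array labelled SNAIL2. Its log2 ratio over BRAF-on was 1.91, with 1.85 to 2.15 over its 3 probe sets, and that over BRAF-off was 0.86. The other arrays had 7467 (ZEB2), 922 (ZEB1) and 28.7 (TWIST1), so that the array labelled SNAIL2 was the highest and that labelled ZEB2 the next. The later enzymes of the pathway were bright on every array but that labelled TWIST1 and differed less. Tyrp1 was at 22671 in BRAF-off, 17439 in BRAF-on and 29340 on the array labelled SNAIL2, a log2 ratio of 0.75. Dct was at 23974, 20660 and 33845, a log2 ratio of 0.71. Both were above BRAF-off on the array labelled SNAIL2 but under a 2-fold difference.

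The proteins of the melanosome's fibrils and membrane were also higher. Pmel, which forms the fibrils on which melanin is laid down, was at 13090, 9740 and 24591 in BRAF-off, BRAF-on and the array labelled SNAIL2, a log2 ratio of 1.34 over BRAF-on. Gpnmb, a related membrane glycoprotein, was at 11621, 9524 and 23639, a log2 ratio of 1.31. Mlana, a partner of Pmel, was at 11194, 6270 and 13282, a log2 ratio of 1.08 over BRAF-on but only 0.25 over BRAF-off. The tetraspanin gene Tspan10 had a larger ratio, 2.64, from 1046, 614 and 3817 units. The list of melanin enzymes and matrix proteins as a whole had 5 of 9 members higher and a median of 1.08 against BRAF-on and 0.50 against BRAF-off, and all 9 members lay above 0.

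The list of melanosome channels and transporters, only some of which set the organelle's pH and ion content, had the largest list median of all, 1.41. Of its 12 members 8 were higher and none lower. Oca2, the gene of a chloride channel whose loss causes albinism, was at 1351 in BRAF-off, 652 in BRAF-on, 4105 in the array labelled SNAIL2, 2118 in ZEB2, 252 in ZEB1 and 17.5 in TWIST1. The highest array was again that labelled SNAIL2, 2.66 log2 units above BRAF-on and 1.60 above BRAF-off. Slc45a2, a transporter of the melanosome membrane, was at 3900, 2128 and 8144 in BRAF-off, BRAF-on and the array labelled SNAIL2. Gpr143, the receptor mutated in ocular albinism, was at 968, 487 and 2643. Kcnj13, a potassium channel gene and the most apart of the pigment cell genes, was at 542, 157 and 1061. Its log2 ratio was 2.76 over BRAF-on and 0.97 over BRAF-off, so that most of the distance was between the BRAF-off and BRAF-on arrays. Trpm1, the melastatin channel, was at 2483, 1787 and 4953, with log2 ratios of 1.47 to 2.62 over 4 probe sets. The exchanger and carrier genes Slc24a4 and Slc6a17 had log2 ratios of 1.36 and 1.56.

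Genes for the building and movement of melanosomes had 11 of 28 members higher, 1 lower and a median of 0.78. Mlph, melanophilin, was at 1433, 784 and 3915 in BRAF-off, BRAF-on and the array labelled SNAIL2, a log2 ratio of 2.32. Its partners on the melanosome are the small GTPase Rab27a and the motor Myo5a. Rab27a was at 284, 252 and 716, a log2 ratio of 1.51 with 0.35 on its other probe set, and Myo5a had 1.23. Rab38 and Rab32, GTPases that carry enzymes to the melanosome, had 1.87 and 1.34, from 1496 to 5484 units for Rab38. Sytl2, an effector of Rab27, had 1.87, and Lyst, mutated in the beige mouse, 1.62. Others were Syt4 (1.78), Rab17 (1.35), Hps3 (1.33) and Hps6, whose bound was at least 2-fold. The exception on the lower side was Bloc1s2, a subunit of a complex that sorts cargo to lysosome-related organelles, at 1937, 2107 and 989, a log2 ratio of -1.09.

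The transcription factors known to run this program were higher as well. Mitf was at 7191 in BRAF-off, 5036 in BRAF-on, 14255 in the array labelled SNAIL2, 11060 in ZEB2, 1410 in ZEB1 and 245 in TWIST1. Its log2 ratio was 1.50 over BRAF-on, 1.68 on its other probe set, and 0.99 over BRAF-off. Sox10, which activates Mitf, was at 3777, 2730 and 7757 in BRAF-off, BRAF-on and the array labelled SNAIL2, a log2 ratio of 1.51. Irf4, a pigmentation gene that works with MITF, was at 77.1, 24.2 and 299, at least 4.70-fold higher. Tfec, a relative of Mitf, was at 336, 162 and 648, Sox5 had a log2 ratio of 1.74 with 0.08 at the low end of 4 probe sets, Lef1, a Wnt pathway factor, 1.39 and Tfap2a 1.20. Pax3 was less apart, at 2945, 2546 and 3746, a log2 ratio of 0.56. In this list of 17 factors 7 were higher, the median was 0.66, and the only lower member was Zeb2, described with the epithelial to mesenchymal factors below.

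Receptors of the pigment cell had 6 of 17 members higher, none lower and a median of 0.52. Mc1r, the receptor for melanocyte stimulating hormone, was at 2400 in BRAF-off, 1547 in BRAF-on and 5806 on the array labelled SNAIL2, a log2 ratio of 1.91 over BRAF-on and 1.27 over BRAF-off. Kit, the receptor for stem cell factor, was at 1316, 751 and 2761, a log2 ratio of 1.88. Its ligand gene Kitl was not counted, at 517, 713 and 389. Met, the hepatocyte growth factor receptor, had a log2 ratio of 1.47, Erbb3, a neuregulin receptor, 1.30, and downstream of Mc1r the adenylyl cyclase gene Adcy9 had 1.56 and the phosphodiesterase gene Pde4d 1.23. For Tyr, Oca2, Mitf and Mc1r the order of the arrays was alike, with SNAIL2 above ZEB2 above BRAF-off above BRAF-on. Other members did not all keep it. The array labelled SNAIL2 was the highest of the 6 in 12 of 17 factors and 9 of 17 receptors, and the lowest in 3 of each.

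**Figure D2:**
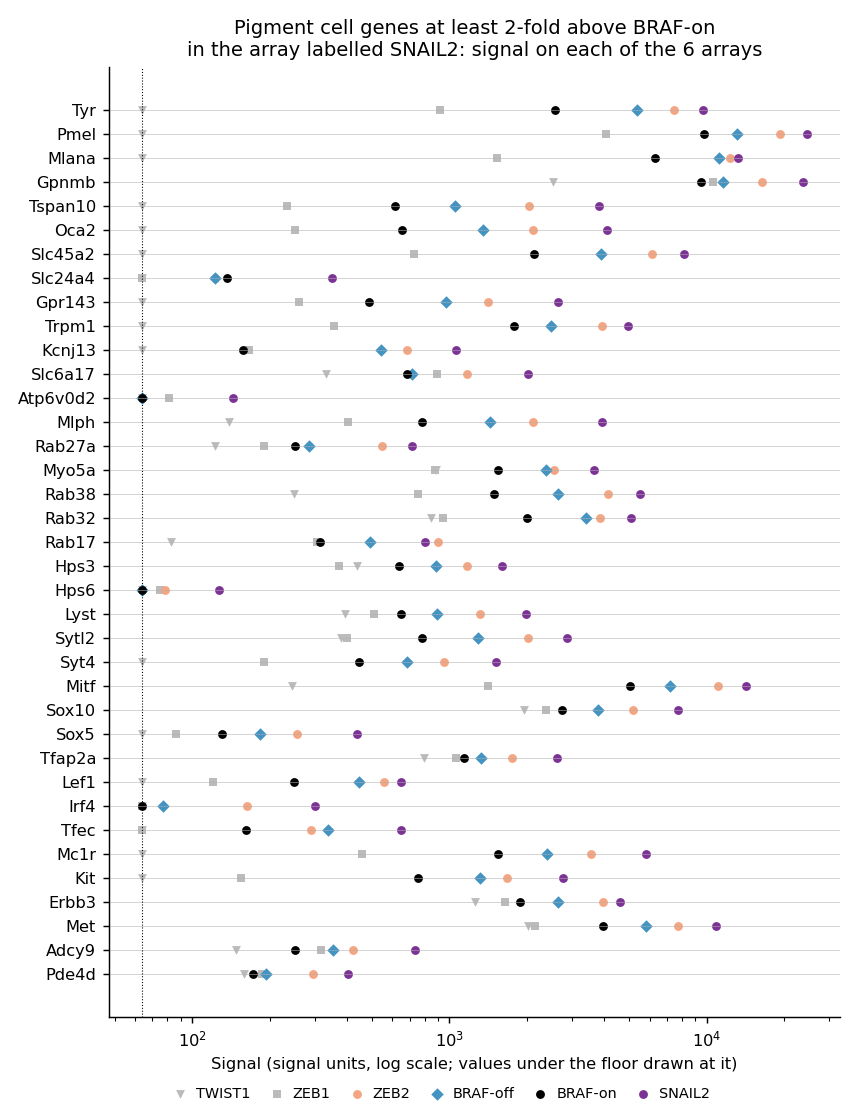
Signal (horizontal, log scale, signal units) on each of the 6 arrays for the 37 pigment cell genes that on the array labelled SNAIL2 lay at least 2-fold above BRAF-on; values under the floor of 63.7 (dotted line) are drawn at it. The array labelled SNAIL2 is the rightmost point in 36 of the 37 genes, Rab17 being the exception, and BRAF-on lies left of BRAF-off in 35. A low BRAF-on signal is favoured by this choice of genes.

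Genes of lipid synthesis formed a further group of higher genes. Together, sterol and fatty acid synthesis had 43 members compared. Of these 17 (39.5%) were higher and none lower, against 5.61% and 6.42% of all genes, and 38 lay above 0. All 17 lay above BRAF-off, 10 by at least 2-fold, and 16 had their highest signal of the 6 arrays on that labelled SNAIL2. Over all 641 higher genes these counts were 636, 322 and 601. Of the 17, 10 had several measured probe sets, and 5 of these were at least 2-fold higher on all. In the mevalonate and cholesterol pathway alone, 10 of 19 were higher and the median was 1.03, with 0.61 against BRAF-off. The early enzyme genes Hmgcs1, Mvk and Mvd had log2 ratios of 1.21, 1.50 and 1.79, and Mvd was at 467, 304 and 1052 units in BRAF-off, BRAF-on and the array labelled SNAIL2. Fdps and Idi1, which act on the isoprene units, had 1.41 and 1.05. The sterol branch followed with Lss at 1.32, Nsdhl at 1.54, Tm7sf2 at 1.36, Msmo1 at 1.03 and Dhcr7, the last step to cholesterol, at 1.71. Probe sets ran from 0.52 to 1.32 for Lss and from 0.19 to 1.30 for Hmgcs1. For Dhcr7 the reference mattered little, with 828 in BRAF-off, 822 in BRAF-on and 2682 on the array labelled SNAIL2. Msmo1 had 0.29 when probe sets that match several transcripts were left out. The median of the mevalonate and cholesterol list over BRAF-on was 0.78 with ZEB2, -0.28 with TWIST1 and -0.40 with ZEB1. That of the fatty acid synthesis list was 0.38, -0.04 and -0.06.

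Fatty acid synthesis had 7 of 24 members higher, none lower and a median of 0.73. Fasn, the fatty acid synthase gene, was at 3498, 2676 and 7941 in BRAF-off, BRAF-on and the array labelled SNAIL2, a log2 ratio of 1.57. Acaca and Acacb, which feed it with malonyl-CoA, had 1.20 and 1.27, the desaturase genes Scd1 and Fads2 had 1.32 and 1.23, the elongase gene Elovl7 2.02 and the phosphatidate phosphatase gene Lpin1 1.82. Of the sterol sensing and lipid handling genes 7 of 26 were higher and 2 lower. Srebf2, the factor that turns on the cholesterol genes, was at 823, 789 and 2015, a log2 ratio of 1.35, and Insig1, which holds it back, had 1.28. The cholesterol exporters Abca1 and Abcg1 had 1.13 and 1.19, Lipa, the lysosomal lipase, 1.27, and Npc1, which moves cholesterol out of lysosomes, 1.37. Mgll, a lipase that frees fatty acids from monoacylglycerol, was more apart, at 2962, 1435 and 10176, with log2 ratios of 2.66 to 2.83 over 3 probe sets. The lower members were the fatty acid binding protein gene Fabp4 (-3.15), described with the BRAF-responsive genes below, and Apod (-1.11). Apod had -0.23 on its other probe set.

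The lysosome, to which the melanosome is related, had 9 of 46 genes higher and none lower, against 5.61% and 6.42% of all genes. The list median was 0.40, beside 0.49 with ZEB1, 0.26 with ZEB2 and -0.04 with TWIST1. On the array labelled SNAIL2 19 of the 46 had their highest signal of the 6 arrays and 8 their lowest. Of all 11416 genes these counts were 3911 and 2921. Cathepsin D, encoded by Ctsd, was at 8867, 7088 and 14826 in BRAF-off, BRAF-on and the array labelled SNAIL2, a log2 ratio of 1.06. Among 12 subunits of the proton pump 3 were higher and the median was 0.27. These were Atp6v0a1 (2.67), Atp6v0b (1.40) and Atp6v0d1 (1.24). The 4 probe sets of Atp6v0a1 ranged from -0.10 to 2.67, however, and the 3 of Atp6v0b from 0.42 to 1.40. Rragd, a GTPase of nutrient sensing at the lysosome, was at 966, 502 and 1934, a log2 ratio of 1.95. Naglu had 1.52, the autophagy kinase gene Ulk1 1.12 and Fnip2 1.02.

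Outside these groups the highest ratio of all belonged to S1pr3, a receptor for sphingosine phosphate, a lipid that signals between cells. It was at 231 in BRAF-off, 208 in BRAF-on, 2266 in the array labelled SNAIL2, 354 in ZEB2, 121 in ZEB1 and 17.8 in TWIST1, so that the array labelled SNAIL2 stood alone. The log2 ratio was 3.44 over BRAF-on, 3.30 over BRAF-off and 2.77 on its other probe set. Of the 12 sphingosine phosphate genes compared, S1pr3 was the only member counted, and the list median was 0.27. Fah, the last enzyme of tyrosine breakdown, was at 122, 167 and 990 in BRAF-off, BRAF-on and the array labelled SNAIL2. For Fah the ratio over BRAF-off, 3.02, was larger than that over BRAF-on, 2.57. Hpse, heparanase, which cuts heparan sulfate in the matrix, was at 177, 154 and 760, a log2 ratio of 2.31.

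Other genes far above BRAF-on were Cfap54, a gene of cilia (3.08), Fndc10 (2.95), Reep6 (2.79), the nuclear receptor gene Nr4a3 (2.72), Chsy3, which makes chondroitin (2.60), Nckap5l (2.54) and the placental growth factor gene Pgf (2.33). Cfap54 was at 497, 197 and 1667 units in BRAF-off, BRAF-on and the array labelled SNAIL2, and Nr4a3 at 1083, 604 and 3984. Of 2362 genes with at least 3 measured probe sets, clone names left out, 30 were at least 2-fold higher on all of them. Bace2, a protease that cuts Pmel, was at 1286, 913 and 3859, with log2 ratios of 2.07 to 2.46 over 5 probe sets. Ndrg1, a gene of differentiation and stress, had 1.38 to 2.03 over 5 probe sets, C2, a complement gene, 1.56 to 1.95 over 3, and Hip1r 1.43 to 1.87. Some genes rested on an array under the floor. Cyp4b1 was at 62.4 in BRAF-on and at 424 on that labelled SNAIL2, at least 6.65-fold higher, and Slco1a4 at 39.4 and 296, at least 4.65-fold higher. Sema6d (2.26) and Clmn (2.34) had other probe sets at 0.01 and -0.18.

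Wnt pathway genes had 4 of 22 members higher and 1 lower, with a median of 0.21. Axin2, a feedback target of canonical Wnt signalling, was at 72.2, 65.2 and 262 in BRAF-off, BRAF-on and the array labelled SNAIL2, a log2 ratio of 2.01. Its neighbours in the pathway, Lef1 and Tcf7l1, had 1.39 and 1.48, and Wnt4 was at least 2.21-fold higher. Wnt5a, a ligand of the other branch, was lower, at 496, 388 and 185, a log2 ratio of -1.07. In the TGF-beta and BMP list of 28 genes, Smad5 was higher (1.15), and Bmp4 and its target Id1 were lower. Id1 was at 1811, 1760 and 840, and Bmp4 at 184, 236 and 46.0, at least 3.71-fold lower.

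On the lower side a large group was that of interferon response genes, which cells use against viruses. Of 51 genes compared, 19 lay at least 2-fold below BRAF-on, against 6.42% of all genes, and none that far above it. In the list 4 lay above 0, and the median was -0.71. On this array 38 had their lowest signal of the 6, against 2921 of all 11416 genes. Against BRAF-off 14 were lower and none higher, and the median was -0.48. The list median on the other arrays was -0.35 with ZEB2, 0.65 with TWIST1 and 0.64 with ZEB1, so that the array labelled SNAIL2 was the lowest. Zbp1, a sensor of left-handed nucleic acids, was at 1173 in BRAF-off, 1673 in BRAF-on, 165 in the array labelled SNAIL2, 704 in ZEB2, 4793 in ZEB1 and 6175 in TWIST1. The log2 ratio over BRAF-on was -3.35, and -1.21 on its other probe set.

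The members spanned the usual arms of this response. Isg20, an exonuclease that degrades viral RNA, was at 996, 1375 and 258 in BRAF-off, BRAF-on and the array labelled SNAIL2, a log2 ratio of -2.41. The interferon inducible GTPase genes Gbp7, Iigp1 and Gbp3 had -2.20, -1.76 and -1.61, and Gbp7 had -2.09 on its other probe set. Ifit3 and Ifit1, which bind foreign RNA, had -1.44 and -1.40, from 7327 to 2696 units for Ifit3. Other members were the DNA sensor family genes Ifi213 (-2.27) and Ifi204 (-1.58), Samd9l (-1.71), Herc6 (-1.69), Xaf1 (-1.58) and Trim30a (-1.42). Ifi27l2a, an interferon gene outside the list, was at 2806, 3470 and 478, a log2 ratio of -2.86. The members Sp100 and Uba7 had -0.43 and -0.19 when probe sets matching several transcripts were left out.

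Antigen presentation and secreted inflammatory factors lay on the same side. In the MHC class I list 3 of 17 genes were lower, none higher, and the median was -0.54 against BRAF-on and -0.19 against BRAF-off. These were the immunoproteasome genes Psmb9 (-1.44) and Psmb8 (-1.19) and the class I gene H2-M3 (-1.28). Of Psmb9 the signals were 802 in BRAF-off, 1274 in BRAF-on and 470 on the array labelled SNAIL2. H2-K1, a classical class I gene, had -0.76 over BRAF-on and -0.15 over BRAF-off. Among 19 inflammatory factors 5 were lower and none higher, with a median of -0.53, and against BRAF-off 3 of 18 were lower with a median of -0.13. Ccl2, a chemokine that draws monocytes, was at 1097, 2644 and 564, a log2 ratio of -2.23 over BRAF-on and -0.96 over BRAF-off. The interferon induced chemokine gene Cxcl10 had -1.60, the cytokine gene Lif -1.47 and Ccl9 -1.07, and Il6 was at 203, 260 and 50.6, at least 4.08-fold lower. The 20 genes of the NF-kB list had none counted either way and a median of -0.23.

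Genes apart between BRAF-off and BRAF-on were read next on the array labelled SNAIL2. In BRAF-on 116 of 11200 genes (1.04%) lay at least 2-fold above BRAF-off and 43 (0.384%) at least 2-fold below it. A number of secreted protease genes were far above BRAF-off in BRAF-on and lower, but not at the BRAF-off level, on the array labelled SNAIL2. Mmp10, the gene of stromelysin-2, was at 38.4 in BRAF-off, 2606 in BRAF-on, 637 in the array labelled SNAIL2, 1382 in ZEB2, 2348 in TWIST1 and 6592 in ZEB1. The array labelled SNAIL2 was the lowest of the 5 with activated BRAF, with a log2 ratio of -2.03 over BRAF-on and at least 3.32 log2 units above BRAF-off. Mmp1a, a collagenase gene, was at 10.1, 946 and 170 in BRAF-off, BRAF-on and the array labelled SNAIL2, and Mmp13, another, at 86.1, 683 and 261. Serpinb2, an inhibitor of plasminogen activators, was at 7.92, 1310 and 360. In the list of 10 matrix metalloproteases, 3 were lower and 1 higher than BRAF-on, with a median of -0.27. The median over BRAF-off, from the 8 members compared with it, was 1.28, of the opposite sign. The higher member was Mmp2, a gelatinase gene that was not higher with BRAF, at 937, 744 and 2330. Among the inhibitors Timp1 was lower (-1.58) and Reck higher (1.01), and the urokinase receptor gene Plaur (-1.09) and the plasminogen activator gene Plat (-1.01, with 0.20 on its other probe set) were lower. In the list of ADAM proteases and heparanase 3 of 17 were higher and none lower, Adam23 (1.81), Adam12 (1.25) and Hpse.

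Further genes were higher in BRAF-on than on both other arrays. Csn3, a milk casein gene, was at 430 in BRAF-off, 2894 in BRAF-on and 526 on the array labelled SNAIL2. Fabp4, which carries fatty acids, was at 15.4, 959 and 108, with -3.15 and -2.94 on its probe sets. Gch1, the first enzyme of tetrahydrobiopterin synthesis, was at 65.6, 378 and 97.7, a log2 ratio of -1.95 with -0.44 on its other probe set, and its regulator gene Gchfr had -1.28. Evi2a was at 54.5, 533 and 133, and Tcstv1 at 50.3, 436 and 107. Gzme, a granzyme gene, at 230, 756 and 178, and Mgst2, a gene of glutathione transfer, at 943, 1903 and 440, lay below BRAF-off on the array labelled SNAIL2. These genes were chosen because BRAF-on was above both other arrays, and BRAF-on enters both ratios, so their return toward BRAF-off is a description of the choice.

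The direct outputs of ERK had counts near the background of 6.42%. Of 26 feedback and target genes 2 were lower and none higher, and the median was -0.02. Dusp5, a phosphatase that acts on ERK, was at 198, 644 and 249 in BRAF-off, BRAF-on and the array labelled SNAIL2, a log2 ratio of -1.37. Its relatives Dusp4 and Dusp6 had 0.90 and 0.51, and the feedback inhibitor gene Spry2 had -0.20. In the AP-1 and early gene list 2 of 25 were lower and 1 higher, with a median of -0.18 over BRAF-on and 0.26 over BRAF-off. Arc was at 92.8, 297 and 117, a log2 ratio of -1.35, and Crem had -1.45, with -0.22 on its other probe set. Egr1, an early gene of ERK, was at 1051, 2061 and 1075, a log2 ratio of -0.94 that was not counted, and Fosl1 had -0.49. The kinase gene Mknk2, which acts below ERK, was higher (1.65). Braf itself was at 758, 687 and 715, a log2 ratio of 0.06 over BRAF-on with -0.73 to 0.40 over 8 probe sets.

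Epithelial junction genes were mostly under the floor on both arrays, with 8 of 29 compared. The cadherin and mesenchymal genes that could be compared lay mostly within 2-fold of BRAF-on. Cdh1, E-cadherin, was under the floor in both arrays of the comparison, at 34.3 in BRAF-on and at 59.5 on that labelled SNAIL2, and could not be compared. Cdh2, N-cadherin, was at 4732 in BRAF-off, 4191 in BRAF-on and 4478 on the array labelled SNAIL2, a log2 ratio of 0.10. Vim, vimentin, the filament gene of mesenchymal cells, was at 29563, 29501 and 29120. Among 15 cadherin and catenin genes none was higher and 1 lower, among 8 epithelial junction genes none was counted, and among 24 mesenchymal genes 1 was lower and the median was -0.01. The lower cadherin was Cdh19, a gene of neural crest and glial cells, at 1917, 1410 and 446, a log2 ratio of -1.66. The lower mesenchymal gene was Dcn, a matrix proteoglycan, at 352, 444 and 109. Col1a1 and Fn1 of the same list had 0.05 and -0.03, though a second Fn1 probe set had -1.02.

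Of 12 transcription factors of the epithelial to mesenchymal change 2 were lower and none higher, with a median of 0.04. Twist1 was at 275 in BRAF-off, 338 in BRAF-on and 138 on the array labelled SNAIL2, a log2 ratio of -1.29. Zeb2, a factor of normal melanocytes, was at 953, 806 and 362, the lowest of the 6 arrays, a log2 ratio of -1.16 with a range of -1.27 to 0.30 over 5 probe sets. Zeb1 was at 88.5, 134 and 121. Without its brighter probe set, which matches several transcripts, Snai2 itself had -1.51.

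Cytoskeleton and matrix lists are read against the 12% of all genes counted either way. In the smooth muscle and actin list 1 of 25 was lower, Myl9, a myosin light chain gene, at 330, 383 and 88.7 in BRAF-off, BRAF-on and the array labelled SNAIL2. Among 23 target genes of YAP, which senses cell shape, Ankrd1 was lower (-1.39, and -1.73 on its other probe set), while Ccn2 was at 0.03. Of 23 collagen genes 3 were counted, a share near the background. Col5a3 was higher (2.01), and Col9a1 (-1.26) and Col8a1 (-1.06) were lower. Of 20 integrin and laminin genes 4 were counted. Itga1 (1.44) and Itga9 (1.22) were higher, and Itgb8 (-1.46) and Lamb3 (-1.05) lower. The insulin growth factor binding protein genes Igfbp7 and Igfbp3 were lower, by log2 ratios of -1.53 and -1.16, and Eng, a TGF-beta coreceptor of endothelial cells, was higher (1.91, and 2.02 on its other probe set).

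Of 62 mitosis genes 12 were lower than BRAF-on and none higher, against 6.42% and 5.61% of all genes, and the median was -0.33. Against BRAF-off the count was also 12, beside 5.31% of all genes. Of 21 genes of the centromere and kinetochore, where chromosomes hold on to the spindle, 6 were lower and the median was -0.67. Of 8 kinesins, the motors of the spindle, 2 were lower with a median of -0.20, and of 5 genes of condensin, which packs chromosomes, 2 were lower with a median of -0.75. The 14 genes for cyclins, their kinases and the anaphase complex had none lower and a median of -0.02. Cenpe, a kinetochore motor, was at 1559 in BRAF-off, 1750 in BRAF-on, 172 in the array labelled SNAIL2, 1332 in ZEB2, 2009 in TWIST1 and 374 in ZEB1. Both of its probe sets were far lower, at -3.34 and -3.06. Cenpf was at 2317, 2771 and 287, but its 3 probe sets ran from -3.27 to -0.02. The kinesin gene Kif20b had -2.88, Knl1, the scaffold of the kinetochore, -2.03, and the condensin gene Smc4 -1.94, with up to -2.85 over 3 probe sets. The mitosis list was lower still on the array labelled ZEB1, where 44 of 62 genes were counted as lower and the median was -1.23. Its median was -0.06 with ZEB2 and -0.11 with TWIST1.

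Mki67, a marker of cycling cells, was at 7677, 7199 and 2107 in BRAF-off, BRAF-on and the array labelled SNAIL2, a log2 ratio of -1.77. Other division genes were little apart. Plk1 and Aurkb, kinases of mitosis, had 0.32 and 0.20, and Ccnb2, a mitotic cyclin gene, -0.07. Of 44 S phase genes 2 were higher and 2 lower, with a median of 0.10. Chaf1b, a histone chaperone gene, had 1.28 and Brca2, which repairs DNA breaks, -1.58, whereas Brca1 had 1.01 with -0.30 to 1.23 over 4 probe sets. Among cell cycle inhibitors and kinases, Cdk2 was higher (1.30), Cdkn3 lower (-1.55), and Cdkn1a, the p21 gene, not apart (0.26). In the p53 list of 23 genes 1 was higher, Trp53inp1 (1.54), and 1 lower, Gadd45a (-1.05). For Trp53inp1 the median of all its probe sets gave the opposite sign, -0.49.

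The lowest ratios of all were not those of a single list, and the probe sets of these genes differed. Nbeal1, of the beige family of scaffold proteins, was at 903 in BRAF-off, 943 in BRAF-on, 77.9 in the array labelled SNAIL2, 910 in ZEB2, 1141 in TWIST1 and 760 in ZEB1. No other array came near that value, and its log2 ratios were -3.60 to -1.29 over 4 probe sets. Ccdc88a, an actin binding scaffold also called girdin, was at 1003, 1035 and 94.9 in BRAF-off, BRAF-on and the array labelled SNAIL2, with -3.58 to -0.67 over 3 probe sets. Atrx, a chromatin remodeller, was at 4277, 4012 and 472, with -3.09 to -0.07 over 6. Phip was at 3310, 3024 and 481, with -2.65 to -0.29 over 7. Ankrd12 had -2.84 and Bod1l -2.61.

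Of the centrosome and cilium list 5 of 35 genes were lower and 3 higher. Pcm1, a scaffold around the centrosome, was at 1357, 1211 and 382 in BRAF-off, BRAF-on and the array labelled SNAIL2, with all 4 probe sets between -1.93 and -1.37. Akap9 had -1.95, Ift74 -1.99 and Cep290, a gene of the base of the cilium, was at 311, 322 and 24.6, at least 5.06-fold lower. In the chromatin list 3 of 48 were lower and none higher, Atrx, Rsf1 (-1.81) and Arid4b (-1.30), and the median was -0.02. Of the 2362 genes with at least 3 measured probe sets, 43 were at least 2-fold lower on all of them. Among these were Tmed5, a gene of early secretion, with -2.98 to -2.35, Esf1, a gene of ribosome assembly, with -2.53 to -2.05, and the RNA binding protein gene Ro60 with -2.39 to -1.55.

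Subunits of the respiratory chain, which makes ATP in mitochondria, were lower as a group by a small amount. Of 62 subunits 14 were at least 2-fold lower and none higher, against 6.42% and 5.61% of all genes. In the list 13 lay above 0, and the median was -0.40. On the array labelled SNAIL2 45 had their lowest signal of the 6, against 2921 of all 11416 genes. Against BRAF-off 13 were lower, none higher and the median was -0.38. The list median was -0.14 with ZEB2, -0.02 with TWIST1 and 0.10 with ZEB1. By complex, the median was -0.44 over 26 subunits of complex I with 8 lower, -0.35 over 7 of complex III with 1 lower, -0.43 over 9 of complex IV with 1 lower and -0.42 over 15 of ATP synthase with 4 lower. The 4 subunits of complex II had none lower and a median of -0.10, and Sdha, its large catalytic subunit, was at 0.19.

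Ndufa5, an accessory subunit of complex I, was at 5252 in BRAF-off, 4995 in BRAF-on, 1400 in the array labelled SNAIL2, 3452 in ZEB2, 5594 in TWIST1 and 4431 in ZEB1. The array labelled SNAIL2 was the lowest and that labelled ZEB2 the next, and the log2 ratio was -1.84, with -2.02 on the other probe set. Ndufa1 was at 8720, 9925 and 3042 in BRAF-off, BRAF-on and the array labelled SNAIL2 (-1.71). The ATP synthase genes Atp5l and Atp5e had -1.63 and -1.42, Uqcrh of complex III -1.16 and Cox7a2 of complex IV -1.01. Atp5md, another small gene of ATP synthase outside the list, had -2.78, at 7516, 10317 and 1503. The short genes Tomm7, of protein import into mitochondria, Uqcr10 and Txndc17 were at least 2-fold lower on all of their 3 probe sets, with -1.65, -1.49 and -1.59 on the probe set nearest to 0.

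Ribosomal protein genes had 3 of 42 members lower, none higher and a median of -0.30. At their lowest signal of the 6 arrays were 30, against 2921 of all 11416 genes. The count of 3 lower members is near the 6.42% of all genes. Its members were Rpl37 (-1.85), Rpl35 (-1.49) and Rpl22 (-1.31), and the medians of the large and the small subunit were close, -0.32 and -0.24. The probe sets of Rpl35 ran from -1.53 to -0.09 and those of Rpl22 from -1.49 to -0.10, and Rpl35 was at -0.09 when probe sets matching several transcripts were left out. Ribosomal protein genes have many near copies in the genome, so their signals are uncertain.

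A property that the size of a ratio did not use is the length of the gene from start to end in RefSeq. The median span was 33.4 kb for higher genes, 20.6 kb for lower genes and 23.6 kb for all. Among the 10% of genes with the shortest span, up to 4.36 kb, 3.16% were higher and 8.07% lower, and among the 10% with the longest, from 118 kb, 9.65% were higher and 4.47% lower. Between these ends the shares did not move evenly, and from 45.1 to 68.7 kb, for example, 5.70% were higher and 7.37% lower.

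Stress and metabolism lists had few members apart. Glycolysis and hypoxia had 1 of 30 higher (Ndrg1) and 2 lower with a median of 0.12, the heat shock list none of 20 higher and 1 lower, and the NRF2 list 1 of 24 higher, the glutathione transferase gene Gstm1, at 1742, 1021 and 3668 in BRAF-off, BRAF-on and the array labelled SNAIL2. In the unfolded protein response list 1 of 39 was higher, the chaperone cofactor gene Sdf2l1 (1.22), and 3 were lower, among them the stress factor genes Ddit3 (-1.18) and Nupr1 (-1.84). Of 14 genes of the BCL2 family, which governs cell death, Bnip3 was lower (-1.12).

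Markers of other cell types were read as a check on what else the cultures may hold. Of 17 keratinocyte markers 4 could be compared, none was counted and the median was -0.17. Fibroblast markers had 9 compared, none higher and 1 lower (Dcn), macrophage and leukocyte markers 7 compared with 1 higher (Cd68, 1.01, also a gene of lysosomes), and endothelial markers 5 compared with 1 higher (Eng). Glial genes, of which melanocytes share several, had 3 of 11 higher, Sox10, Erbb3 and S100b (1.42), and 1 lower, Cdh19.

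**Figure D3:**
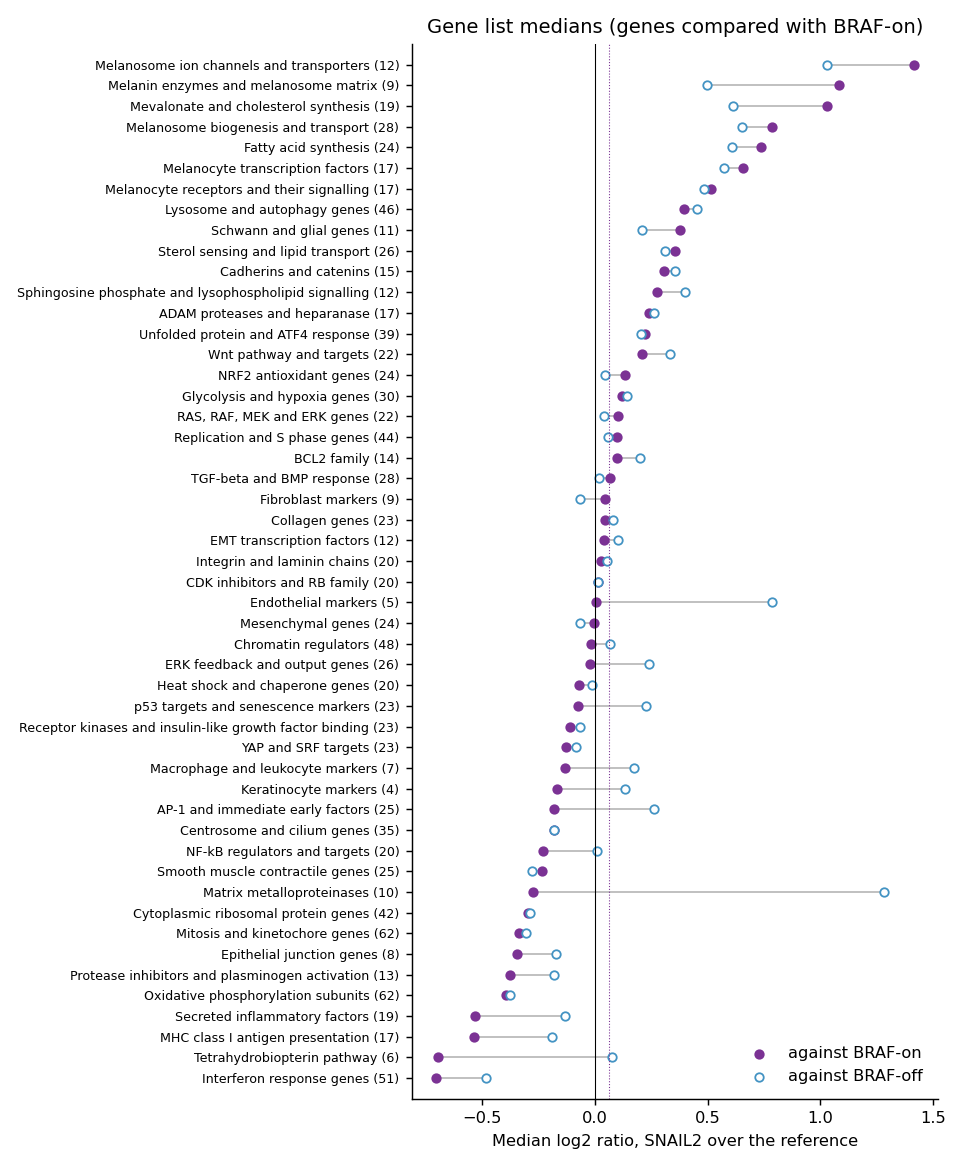
Median log2 ratio of each gene list (vertical, with the number of genes compared in brackets) in the array labelled SNAIL2 over BRAF-on (filled) and over BRAF-off (open); the dotted line is the median of all genes compared, 0.06. Melanosome channels (1.41) and sterol synthesis (1.03) are among the highest and the interferon list (-0.71) is the lowest against BRAF-on. The metalloprotease list moves most between the references, from -0.27 over 10 genes to 1.28 over 8.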

How the data were processed

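Per the labels' protocols, Trizol RNA of 6 melan-a cultures, 1 per group, was amplified from the 3' end and read on Affymetrix mouse arrays. Per the submitters' processing notes, the authors ran MAS5 in Affymetrix Expression Console 1.1, and they deposited linear signal intensities. The trimmed mean, without the highest and lowest 2%, was 500.0 on every array, so the arrays came scaled alike. No detection calls were used here.

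Of 45037 probe sets other than controls, the platform annotation gave 34945 a single symbol, 932 several and 9160 (20.3%) none, and genes rest on the first kind. Symbols were checked against RefSeq GRCm38.p6, which held 34741 of them. A gene was read by its brightest probe set, by mean log2 signal over the arrays. Values under the floor were raised to it and log2 ratios taken, with no further normalization. Counting was tested on simulated data. Protein length had been planned as a property of genes, and the gene's span was used instead since no protein table was used here. The number of arrays limits the precision.

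The comparison, the 50 gene lists and the rule for named genes were chosen with earlier results of these data known. The rule took, per direction, the 15 largest ratios of genes at or above the floor on both arrays and the 8 largest bounds, without clone names and genes with a probe set of the opposite sign, and list members at least 2-fold apart. It also took the added factors and Braf, up to 10 genes per direction that were BRAF-responsive and 2-fold back, up to 10 with the largest smaller ratio over both references, and up to 10 with at least 3 probe sets all 2-fold apart. Other genes were named after their values were seen, as members of the lists. Alternatives were quantile normalization, centring, a floor at the 60th or 75th percentile or none, a pseudocount in its place, a gene's median probe set, probe sets matching several transcripts left out, a 3-fold size, and BRAF-off as the reference. Computation used Python 3.11.15, numpy 2.4.6 and pandas 2.3.3.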

Additional observations from a re-analysis of the deposited data

Results flagged for a closer look

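The control transcripts with a poly-A tail, which belong to no comparison of genes, were at a median of 2.55 times their BRAF-on signal on the array labelled SNAIL2, above it on all 24 probe sets, whereas the other 4 arrays lay between 0.880 and 1.42. These controls are added to the sample RNA before amplification, so their signal also depends on how much sample RNA they were added to. Whether that amount differed on this array, and its part in the gene differences, was not tested.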

How the results depend on the processing

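Counts of genes at least 2-fold higher and lower than BRAF-on were 630 and 764 with quantile normalization, 549 and 837 with centring, 537 and 625 with a floor at the 60th percentile, 458 and 550 with the floor as a pseudocount and 528 and 652 with a gene's median probe set, and they stayed within 1.5 times without probe sets matching several transcripts. They left the range within 1.5 times of 641 and 733 with a floor at the 75th percentile (323 and 390), without a floor (2240 and 2679) and at 3-fold (155 and 176). With BRAF-off as the reference they were 446 and 592. A few list medians moved. With the floor at the 60th percentile that of metalloproteases was -1.05 and of endothelial markers 0.73, and that of receptor kinases and IGF binding proteins turned to 0.12. At the 75th percentile endothelial markers were at 1.91 and tetrahydrobiopterin genes at -0.0485. Against BRAF-off melanin enzymes had 0.50, tetrahydrobiopterin genes 0.0747 and endothelial markers 0.78, and the sign turned for metalloproteases (1.28), AP-1 genes (0.26), keratinocyte markers (0.13) and macrophage markers (0.17). Of single named genes, Trp53inp1 turned to -0.49 with the median of its probe sets. Against BRAF-off the sign turned for Arc (0.33), Csn3 (0.29), Dusp5 (0.33), Evi2a (1.07), Fabp4 (0.76), Gch1 (0.57), Gchfr (0.17), Mmp10 (3.32), Mmp13 (1.60), Mmp1a (1.42), Serpinb2 (2.50) and Tcstv1 (0.75). All of these were lower than BRAF-on, so a turned sign requires BRAF-on above BRAF-off. The cause of the other moves was not tested, save that a higher floor compares fewer genes. No paired analysis was possible because each group has 1 array and the labels carry no replicate numbers. Dim genes near the floor are the least certain.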

Other observations

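Probe sets without a single gene symbol leaned to the lower side. Of 10092 such probe sets 3421 were measured, and 154 (4.50%) lay at least 2-fold above BRAF-on and 343 (10%) at least 2-fold below it on the array labelled SNAIL2. Among the 20887 measured probe sets with 1 symbol these shares were 5.21% and 6.21%.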
